A study of Mus musculus with 2 samples.

Results

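The brakes of the cell cycle examined here are 9 genes, chosen by symbol from the 32285 gene rows of the deposited matrix. They are 2 inhibitors of the CIP/KIP family (*Cdkn1a* and *Cdkn1b*), 4 of the INK4 family (*Cdkn2a*, *Cdkn2b*, *Cdkn2c* and *Cdkn2d*) and the 3 pocket proteins of the retinoblastoma family (*Rb1*, *Rbl1* and *Rbl2*). All 9 symbols were matched. The nuclei came from whole mouse testes at E14.5, frozen and profiled with the 10x multiome assay, which reads RNA and accessible chromatin (ATAC) from the same nucleus. Every embryo carried *Nr5a1-cre* and *Rosa-tdTomato*, with no other genotype or treatment to compare with. The sources used here do not give the number of embryos that went into the pool. A single RNA library and a single ATAC library were made, so no difference could be tested against the spread between animals. All intervals below are exact 95% intervals that cover counting error only.

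Inhibitors of the INK4 family bind CDK4 and CDK6, the kinases that pair with D-type cyclins, and inhibitors of the CIP/KIP family bind a wider range of cyclin-CDK complexes. Both slow the phosphorylation of the pocket proteins, which in their unphosphorylated form hold back E2F target genes. In the fetal testis, male germ cells leave the cycle and enter a long arrest around this stage, while Sertoli cells and interstitial cells go on dividing.

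After filtering, 7198 nuclei were kept, with 76724670 UMIs in all and a median of 7952 UMIs and 4475 ATAC fragments per nucleus. They formed 14 clusters, of which 13 were named from marker genes and gave 11 classes, each written with the ending "-like". A cluster of 130 nuclei led by *Pax8* stayed unnamed. The largest classes were progenitor-like (2080 nuclei), contractile-like (1198), germ-like (980), Sertoli-like (797) and Leydig-like (793), and the progenitor-like and contractile-like nuclei together are called interstitial (3278 nuclei). The classes were named from these markers, so the marker sums that follow describe the classes and are no check on their names. Among nuclei with no UMI of *Mki67* or *Top2a*, which mark cycling cells, in a draw of 3000 UMIs each, the 5 germ markers summed to 1567 CPM (UMIs per 1000000 UMIs) in germ nuclei against 16.6 in Sertoli and 19.2 in interstitial nuclei. The 5 Sertoli markers summed to 749 CPM in Sertoli and 240 in germ nuclei, and the 6 progenitor markers to 2051 in interstitial and 286 in germ nuclei, so germ nuclei held some RNA of markers of other classes. Unmarked Sertoli nuclei likewise had 210 CPM of the progenitor and 295 of the Leydig markers. Depth differed, with a median of 15521.5 UMIs in germ-like and 6584 in progenitor-like nuclei.

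The promoters on which the ATAC and motif results below turn are given here so that the starts can be told apart. *Cdkn2a* and *Cdkn2b* are neighbours on the minus strand of chromosome 4. *Cdkn2a* has a start at position 89294619, from which the transcript for the p53-pathway protein p19ARF is read, and another at 89282192 for the CDK inhibitor p16INK4a. *Cdkn2c* and *Rbl1* are shown because both were higher in cycling somatic nuclei. Each line holds the 250 bases before the start from RefSeq on GRCm38.p6, 5′ to 3′ on the minus strand, and capitals mark matches to the E2F motif.
Cdkn2a, p19ARF start, chr4:89294620-89294869: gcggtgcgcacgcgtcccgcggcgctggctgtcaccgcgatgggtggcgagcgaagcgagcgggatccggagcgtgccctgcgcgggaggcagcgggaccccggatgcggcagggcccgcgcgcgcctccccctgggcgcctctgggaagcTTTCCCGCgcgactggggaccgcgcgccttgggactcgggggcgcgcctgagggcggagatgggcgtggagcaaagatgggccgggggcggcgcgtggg
Cdkn2a, p16INK4a start, chr4:89282193-89282442: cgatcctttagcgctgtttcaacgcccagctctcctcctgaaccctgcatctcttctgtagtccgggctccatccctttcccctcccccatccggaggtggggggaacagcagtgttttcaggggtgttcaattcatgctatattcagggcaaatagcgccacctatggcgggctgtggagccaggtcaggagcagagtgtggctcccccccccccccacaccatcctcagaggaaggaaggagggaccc
Cdkn2b, chr4:89311033-89311282: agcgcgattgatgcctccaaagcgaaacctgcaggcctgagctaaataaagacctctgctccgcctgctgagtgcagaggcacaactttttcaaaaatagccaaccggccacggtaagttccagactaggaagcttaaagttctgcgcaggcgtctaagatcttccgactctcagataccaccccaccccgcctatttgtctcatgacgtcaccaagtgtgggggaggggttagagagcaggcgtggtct
Cdkn2c, chr4:109666757-109667006: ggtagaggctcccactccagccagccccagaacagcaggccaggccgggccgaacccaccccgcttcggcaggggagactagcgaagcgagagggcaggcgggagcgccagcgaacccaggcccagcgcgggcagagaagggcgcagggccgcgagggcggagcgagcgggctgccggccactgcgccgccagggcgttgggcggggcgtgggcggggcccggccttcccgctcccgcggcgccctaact
Rbl1, chr2:157204535-157204784: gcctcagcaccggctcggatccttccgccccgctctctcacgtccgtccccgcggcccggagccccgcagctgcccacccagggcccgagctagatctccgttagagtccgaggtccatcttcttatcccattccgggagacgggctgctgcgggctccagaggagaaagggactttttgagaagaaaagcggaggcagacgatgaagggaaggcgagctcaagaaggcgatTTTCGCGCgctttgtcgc

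Of the 9 genes, 8 had a promoter entry, with 11 starts in all. Windows from 250 bases before to 50 after each start were searched on both strands for the E2F motif as TTTCGCGC, TTTGGCGC or TTTCCCGC, the CHR element as TTTGAA and the CDE element as GGCGG. An E2F match was found at 2 of the 11 starts, the p19ARF start of *Cdkn2a* (TTTCCCGC, first base at position -99 from the start) and *Rbl1* (TTTCGCGC at -18). Of all 32817 promoter windows, 1.84% held one. The CHR letters occurred at *Cdkn2b* and *Rbl2*, and in 17.9% of all windows. CDE letters occurred at 9 of the starts and in 48.8% of all windows. A match of letters is no measurement of binding.

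Across the 11 classes, *Cdkn2a* and *Cdkn2b* were highest in germ-like nuclei and *Rb1* and *Rbl1* in erythroid-like nuclei, in each case by at least 1.5 times over the next class. These 4 of 9 genes stood against 30.2% of all 15104 genes measured with at least 100 UMIs, so a leading class was a common pattern. The other 5 genes had no such class, or their highest class held under 20 UMIs. Erythroid-like nuclei were also the highest class for *Mki67* (1517 CPM, next pericyte-like with 316) and *Top2a* (972 CPM, next progenitor-like with 408). In a draw of 3000 UMIs each, 36 of 38 erythroid-like nuclei held an *Mki67* UMI (94.7%). What part cycling had in the erythroid-like levels of *Rb1*, *Rbl1* or any other gene was not tested.

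Among the CIP/KIP inhibitors, *Cdkn1b* (chr6:134920401-134925513, plus strand, as all positions here on mm10) encodes p27, which holds cells out of the cycle in many tissues. Germ-like nuclei had the lowest level of the 11 classes, 12.2 CPM (10.7 to 13.8, 249 UMIs). The 6 other classes of at least 300 nuclei lay between 14.3 (mesonephric mesenchyme-like) and 20.7 CPM (progenitor-like, 328 UMIs). Immune-like nuclei had the highest level, 44.0 CPM, from 21 UMIs (27.2 to 67.2). Germ over interstitial nuclei gave a ratio of 0.625 (0.534 to 0.730), and neighbouring classes in the order overlapped in their intervals throughout. *Cdkn1a* (chr17:29090976-29100727, plus strand) encodes p21, a target of p53. It was sparse, with 109 UMIs over the 11 classes. Germ-like nuclei held 58 of them, a level of 2.84 CPM (2.16 to 3.67) against 0.588 in interstitial nuclei, a ratio of 4.83 (2.66 to 9.39) from 72 UMIs. Immune-like nuclei had 5 UMIs and 10.5 CPM (3.40 to 24.4).

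*Cdkn2a* gave the clearest division among the INK4 genes. Germ-like nuclei held 302 of its 329 UMIs in the classes, a level of 14.8 CPM (13.2 to 16.6). The next large class, progenitor-like nuclei, had 14 UMIs and 0.884 CPM (0.483 to 1.48). Sertoli-like nuclei had 4 UMIs, contractile-like and Leydig-like nuclei 3 each, and surface epithelium-like, mesonephric mesenchyme-like, pericyte-like and immune-like nuclei none. The intervals of germ-like nuclei and of every other class of at least 300 nuclei were apart. In erythroid-like nuclei a single UMI gave 2.49 CPM with an interval up to 13.9, so that class was not resolved. After each nucleus was thinned to 3000 UMIs, 53 of 972 germ-like nuclei had a *Cdkn2a* UMI, a share of 5.45% (4.11 to 7.07). The share was 0.127% in Sertoli-like nuclei (1 of 790), taken here as the background. Without thinning the shares were 20.6% and 0.376%, at medians of 15521.5 and 9671 UMIs.

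*Cdkn2b*, which encodes p15, was also highest in germ-like nuclei, at a lower count. Germ-like nuclei had 93 of 106 UMIs, or 4.55 CPM (3.68 to 5.58). Sertoli-like nuclei had 0 UMIs, where 3 counts would give 0.342 CPM. The germ-like level was 13.3 times that floor, a value that leaves out the counting error of the germ UMIs. Interstitial nuclei had 6 UMIs and 0.252 CPM, and the ratio of germ to interstitial was 18.1 (8.0 to 50.5). The next class was the pericyte-like, where 1 UMI gave 1.46 CPM and a ratio of 3.13 (0.548 to 125) that was not resolved. The annotated spans of *Cdkn2a* (chr4:89274471-89294653) and *Cdkn2b* (chr4:89306299-89311039) do not overlap.

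*Cdkn2c* (chr4:109660876-109667189, minus strand), which encodes p18, was highest in immune-like nuclei at 10.5 CPM, with a UMI in 4 of 65 nuclei. It was lowest in germ-like nuclei, with 21 UMIs and 1.03 CPM (0.637 to 1.57), in the deepest nuclei of the set. Progenitor-like nuclei had 7.64 CPM (6.34 to 9.13, 121 UMIs), Sertoli-like nuclei 3.76 (2.59 to 5.28) and contractile-like nuclei 1.38 (0.688 to 2.47). The intervals of contractile-like and germ-like nuclei overlapped. Progenitor-like nuclei thus had 2.03 times the level of the next large class. *Cdkn2d* (chr9:21288410-21291407, minus strand), which encodes p19INK4d, lay from 0.333 to 2.27 CPM in every class but the erythroid-like, where 11 UMIs gave 27.4 CPM (13.7 to 49.0).

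Of the pocket proteins, *Rb1* differed most between classes. Germ-like nuclei had 350 CPM (342 to 358, 7150 UMIs), against 98.1 in Sertoli-like (91.7 to 105), 79.9 in Leydig-like, 73.6 in progenitor-like and 65.3 in contractile-like nuclei (59.8 to 71.1). Germ over Sertoli nuclei gave 3.57 (3.33 to 3.84) and germ over interstitial nuclei 4.95 (4.69 to 5.22). Higher still were immune-like nuclei with 379 CPM (326 to 438, 181 UMIs) and erythroid-like nuclei with 614 (540 to 696, 247 UMIs), while endothelial-like nuclei lay between at 192 (174 to 210). The intervals of immune-like and germ-like nuclei overlapped, and the 7 classes below the endothelial-like lay from 65.3 to 98.1 CPM. A *Rb1* UMI was found in 63.7% of thinned germ-like nuclei and in 21.3% of Sertoli-like ones (95.5% and 48.9% without thinning).

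*Rb1* spans 142150 bp on chromosome 14 (73183673 to 73325822, minus strand) and overlaps *Rcbtb2* and *Lpar6* on the opposite strand. Both were lower in germ-like than in progenitor-like nuclei, *Rcbtb2* with 44.1 against 98.4 CPM and *Lpar6* with 6.81 against 13.2, so their order was the reverse of that of *Rb1*. The sources used here do not say whether the counting kept the strands apart.

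*Rbl1* (chr2:157145893-157204534, minus strand), which encodes p107 and is itself a known E2F target, ranged over the large classes from 39.2 CPM in Leydig-like (35.2 to 43.5) to 82.3 in progenitor-like nuclei (77.9 to 86.9). Germ-like nuclei had 75.1 (71.4 to 79.0) and Sertoli-like nuclei 72.8 (67.3 to 78.7), which overlap. Erythroid-like nuclei had 234 CPM (189 to 286, 94 UMIs). *Rbl2* (chr8:91070057-91123844, plus strand), which encodes p130, the pocket protein known from resting cells, was lowest in germ-like nuclei at 27.2 CPM (25.0 to 29.6), and 40.6 to 50.4 in the other classes of at least 300 nuclei. Germ over interstitial nuclei gave 0.589 (0.531 to 0.653). *Aktip*, which overlaps it on the opposite strand, had 24.7 CPM in germ-like and 17.0 in progenitor-like nuclei.

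**Figure D1:**
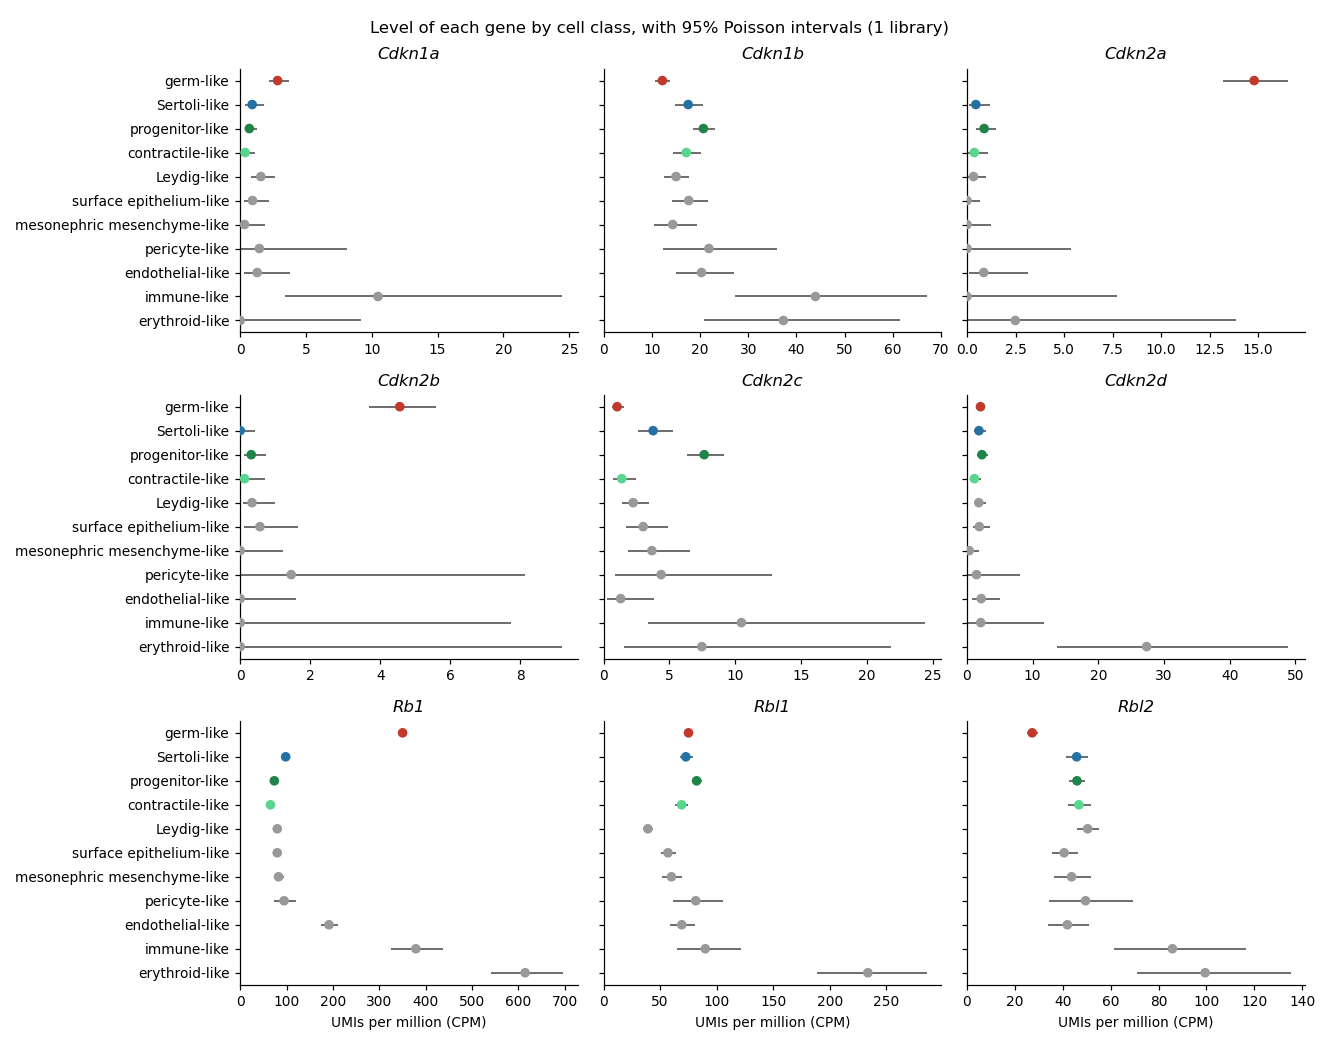
Each panel gives the level of 1 gene in CPM on a linear axis for the 11 classes, with points for the summed level and lines for exact 95% Poisson intervals. *Cdkn2a* (14.8 CPM) and *Cdkn2b* (4.55) are highest in germ-like nuclei, *Rb1* is high in germ-like, immune-like and erythroid-like nuclei, and the small classes at the bottom have wide intervals.

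The difference between germ and somatic nuclei was read again in nuclei with no UMI of *Mki67* or *Top2a* among 3000 UMIs drawn from each. There *Rb1* had 374 CPM in germ, 86.1 in Sertoli and 63.0 in interstitial nuclei. *Cdkn2a* had 15.9 CPM in germ nuclei (178 UMIs), 0.455 in interstitial nuclei (5 UMIs) and no UMI in Sertoli nuclei. The germ level was 21.8 times the 0.732 CPM that 3 counts would give in Sertoli nuclei, without the germ counting error. *Rbl2* remained lower in germ than in interstitial nuclei (0.552, 0.475 to 0.641), as did *Cdkn1b* (0.570, 0.442 to 0.733). For *Cdkn1a* the germ over interstitial ratio was 2.75 (1.30 to 6.34, 28 and 10 UMIs), against 4.83 in all nuclei. For *Rbl1* it was 1.39 (1.25 to 1.55), against 0.965 in all nuclei. For *Cdkn2c* no difference was detectable there at this depth, with 0.894 CPM in germ, 0.975 in Sertoli and 0.819 in interstitial nuclei and a germ over interstitial ratio of 1.09 (0.398 to 3.03).

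The ATAC reads gave a second measure from the same nuclei. Fragments with a cut within 1 kb of a start were counted once each and given per 1000000 fragments of the class (FPM). Taken over the whole range of annotated starts, *Cdkn2b* alone of the 9 genes had a class with at least 20 fragments and 1.5 times the next, against 4.89% of 17380 genes. With cuts in the deposited peaks in place of fragments at starts, 4 of the 9 had one, against 12.3% of 17786 genes: *Cdkn2a* and *Cdkn2b* in germ-like (1.95 and 1.89), *Cdkn1a* in immune-like (1.96, 22 cuts) and *Cdkn1b* in erythroid-like nuclei (2.17, 22 cuts). Both ends of a fragment can count as cuts, so 22 cuts can come from fewer fragments. At the starts, *Cdkn1a* in immune-like and *Cdkn1b* in erythroid-like nuclei had 12 fragments each. Their ratios to the next class there were 1.11 (0.418 to 3.14) and 1.99 (0.818 to 4.85). The *Cdkn2b* promoter had 18.01 FPM in germ-like nuclei (15.1 to 21.3, 139 fragments), 11.2 in Sertoli-like (8.05 to 15.1) and 11.1 in Leydig-like nuclei (7.79 to 15.4). Interstitial classes were lower, with 5.87 in progenitor-like (4.50 to 7.53) and 3.99 in contractile-like nuclei (2.53 to 5.99). Sertoli-like nuclei thus had a higher FPM at this promoter than both interstitial classes although no *Cdkn2b* UMI was counted in them.

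At *Cdkn2a* the starts were counted apart, and most fragments lay at the p19ARF start. Germ-like nuclei had 19.7 FPM there (16.7 to 23.1, 152 fragments), progenitor-like nuclei 11.9 (9.94 to 14.2) and Sertoli-like nuclei 5.32 (3.25 to 8.21), and germ over progenitor gave 1.65 (1.29 to 2.11). Within 1 kb of the p16INK4a start the levels were 2.46 in germ-like (1.48 to 3.84, 19 fragments), 2.18 in progenitor-like (1.38 to 3.27), 1.33 in Sertoli-like (0.432 to 3.10) and 0.867 in contractile-like nuclei (0.282 to 2.02), which overlap. Whether the class pattern differed between the starts was not tested. All 11 classes together had 436 fragments at the first start and 70 at the second, in windows of equal size. The deposited peaks follow this, with 635 cuts of kept nuclei in chr4:89294417-89295247 and 90 in chr4:89281775-89282716. Which transcript the UMIs came from cannot be read from a table of 1 count per gene. RNA of *Cdkn2a* differed more between classes than its promoter: germ over progenitor was 16.7 in CPM.

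**Figure D2:**
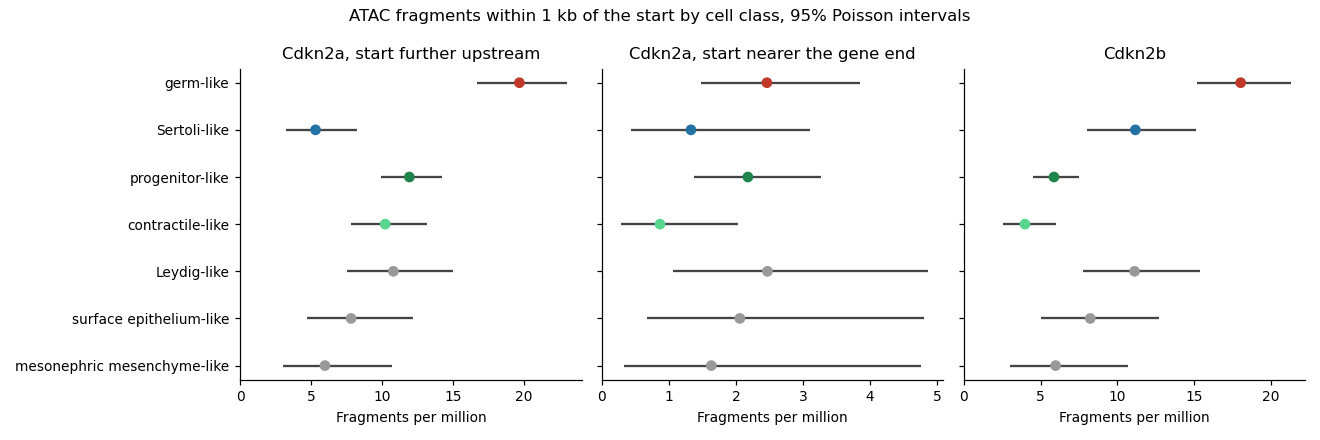
Points give FPM for fragments with a cut within 1 kb of the start in the 7 classes of at least 300 nuclei, lines give exact 95% Poisson intervals, and each panel has its own linear axis. Germ-like nuclei lead at the p19ARF start of *Cdkn2a* (left, 19.7) and at *Cdkn2b* (right, 18.01), and the p16INK4a start (middle) stays under 2.5 FPM.

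The *Rb1* promoter did not follow the RNA. Its highest class was the endothelial-like with 24.7 FPM, 1.10 times the progenitor-like class (0.642 to 1.78). In nuclei with no *Mki67* or *Top2a* UMI it had 17.4 FPM in germ, 14.4 in Sertoli and 17.5 in interstitial nuclei. With 2 or more such UMIs the values were 19.5, 11.7 and 23.4. For the other 6 genes the highest class was the erythroid-like or, for *Cdkn1a*, the immune-like, and none was 1.5 times the next with enough fragments.

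Cycling was then read within germ, Sertoli and interstitial nuclei. Each nucleus was thinned to 3000 UMIs and called marked with 2 or more UMIs of *Mki67* and *Top2a* together, and unmarked with none. In germ nuclei 183 were marked, 614 unmarked and 175 had 1 UMI. In Sertoli nuclei the numbers were 235, 428 and 127, and in interstitial nuclei 891, 1638 and 606. Shallower nuclei were left out (8, 7 and 143). Marked nuclei were deeper before thinning, with medians of 17536 against 15425 UMIs in germ, 12673 against 8835 in Sertoli and 8428 against 6054 in interstitial nuclei. The rest of the G2M gene list rose from 1568 to 8851 CPM in interstitial and from 1986 to 8412 in Sertoli nuclei, but only from 3970 to 6566 in germ nuclei, so the markers divided germ nuclei less sharply.

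No gene with at least 100 UMIs over both groups was lower in marked nuclei by 1.5 times or more, and those that were higher differed by population. Among genes with that many UMIs, 1 of 5 genes was higher in marked germ nuclei (*Cdkn1b*), 2 of 4 in Sertoli nuclei (*Cdkn1b* and *Rbl1*) and 3 of 5 in interstitial nuclei (*Cdkn1b*, *Cdkn2c* and *Rbl1*). Over all genes, 12.3% were higher and 9.1% lower in marked germ nuclei, 6.8% and 4.22% in Sertoli nuclei, and 6.67% and 4.15% in interstitial nuclei. Over those of the 9 genes with enough UMIs, the median log2 ratio was 0.18 in germ, 0.54 in Sertoli and 0.72 in interstitial nuclei, beside 0.02, -0.03 and -0.06 over all genes. These medians are not over the same genes and do not rank the populations. *Cdkn2a* had enough UMIs only in germ nuclei and *Cdkn2c* only in interstitial nuclei.

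*Cdkn2c* changed the most. In interstitial nuclei it had 0.819 CPM in unmarked (0.375 to 1.56, 9 UMIs), 1.21 in nuclei with 1 marker UMI (0.393 to 2.82, 5 UMIs) and 14.0 in marked nuclei (11.6 to 16.8, 118 UMIs). Marked over unmarked was 17.1 (8.72 to 38.4), and of the 132 UMIs in these nuclei all but 14 lay in the marked ones. Progenitor-like nuclei carried most of this, with 111 UMIs in marked and 6 in unmarked nuclei. This class joins a cluster of 1473 nuclei and one of 607 whose leading genes were cycle genes, *Cdkn2c* among them, although *Cdkn2c* took no part in the clustering. In contractile-like nuclei the numbers were 7 and 3. Sertoli nuclei moved in the same direction, from 0.975 (4 UMIs) to 8.12 CPM (26 UMIs), a ratio of 8.32 (2.89 to 32.8), but with too few UMIs to be counted above. Leydig-like nuclei had 3 UMIs in 605 unmarked and 15 in 74 marked nuclei. Their Leydig markers summed to 2358 CPM in marked and 4602 in unmarked nuclei, the progenitor markers to 975 and 545 and the contractile markers to 127 and 53.7, and the part of these in the Leydig-like values was not tested. In germ nuclei *Cdkn2c* stayed at 0.894 CPM in unmarked (10 UMIs), 1.52 with 1 marker UMI (6 UMIs) and 0.950 in marked nuclei (5 UMIs), a ratio of 1.06 (0.285 to 3.41). The interval of the germ ratio did not overlap that of the interstitial ratio.

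*Rbl1* was higher in marked somatic nuclei. It went from 53.7 CPM in unmarked (49.5 to 58.2) through 65.1 (57.5 to 73.3) to 116 in marked interstitial nuclei (109 to 123), a ratio of 2.15 (1.94 to 2.39). In Sertoli nuclei it went from 52.9 to 109 CPM (2.07, 1.74 to 2.46), with 48.7 in those with 1 marker UMI, and in Leydig-like nuclei from 32.0 to 90.8 (2.84, 2.21 to 3.62). Germ nuclei had 74.7 CPM unmarked, 63.2 with 1 marker UMI and 84.9 marked, a ratio of 1.14 (1.01 to 1.28). Marked Sertoli and interstitial nuclei thus had more *Rbl1* than marked germ nuclei, and unmarked ones less.

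*Cdkn1b* was counted as higher in marked nuclei of all 3 populations, but in each this depended on the settings. Its level was 9.03 CPM in unmarked (7.36 to 10.97, 101 UMIs), 14.4 in nuclei with 1 marker UMI and 17.1 in marked germ nuclei (13.8 to 21.02, 90 UMIs), a ratio of 1.89 (1.41 to 2.54). In Sertoli nuclei it was 13.9, 17.8 and 22.2 CPM in the same order (1.59, 1.11 to 2.30), and in interstitial nuclei 15.8, 15.7 and 26.0 (1.64, 1.34 to 2.02). Contractile-like nuclei on their own gave 1.48 (0.975 to 2.22) and Leydig-like nuclei 1.19 (0.685 to 1.96), whose intervals hold 1. The ratio in germ nuclei was 1.13 when nuclei were thinned to 2000 UMIs, 1.41 when thinned to 5000 and 1.13 when S and G2M nuclei were set against G1 nuclei. In Sertoli nuclei it fell under 1.5 in 10 of 15 alternatives, down to 1.22 by phase, and in interstitial nuclei in 4 of 16, down to 1.37 by phase.

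*Rb1* and *Rbl2* changed less. *Rb1* went from 63.0 to 84.2 CPM in interstitial nuclei (1.34, 1.202 to 1.49) and from 86.1 to 114 in Sertoli nuclei (1.32, 1.14 to 1.53), and from 374 to 323 in germ nuclei (0.864, 0.816 to 0.914), all within 1.5 times. By phase, with S and G2M against G1, *Rb1* gave 1.503 in interstitial and 1.53 in Sertoli nuclei, just past it. *Rbl2* gave ratios of 1.04 in interstitial (0.912 to 1.19), 0.919 in Sertoli (0.735 to 1.15) and 1.23 in germ nuclei (1.004 to 1.497), where it was 0.734 without nuclei of over 20000 UMIs. *Cdkn2a* in germ nuclei had 15.9 CPM unmarked (178 UMIs), 14.2 with 1 marker UMI and 12.9 marked (68 UMIs), a ratio of 0.812 (0.605 to 1.08). That ratio was 1.25 without nuclei of over 20000 UMIs and 0.599, past 1.5 times downward, with thinning to 2000 UMIs. *Cdkn2a* was found in germ nuclei with and without the markers. The remaining genes were too sparse to be counted: in germ nuclei *Cdkn2b* had 53 UMIs unmarked and 16 marked (0.642, 0.342 to 1.14), *Cdkn2d* 31 and 5 (0.343, 0.104 to 0.889) and *Cdkn1a* 28 and 16 (1.21, 0.614 to 2.32). *Cdkn2d* in interstitial nuclei had 13 and 26 (2.61, 1.29 to 5.54).

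Marker lists moved with the marks. In Sertoli nuclei the Sertoli markers summed to 518 CPM in marked and 749 in unmarked nuclei (0.691, 0.651 to 0.734), the Leydig markers to 249 and 295 and the progenitor markers to 234 and 210. In interstitial nuclei the progenitor markers summed to 1874 and 2051 CPM and the Leydig markers to 275 and 351 (0.782, 0.742 to 0.824). The 6 progenitor markers summed to 449 CPM in marked and 286 in unmarked germ nuclei, the 5 Leydig markers to 361 and 252, and the germ markers to 1232 and 1567. An automatic doublet threshold would remove 30.1% of marked and 22.5% of unmarked germ nuclei, 17.4% and 7.71% of Sertoli and 9.54% and 4.21% of interstitial nuclei. Among the 128 marked and 476 unmarked germ nuclei under it, the progenitor markers were at 94.0 and 124 CPM, the Leydig markers at 165 and 173 and the germ markers at 1877 and 1873, while the contractile markers were still apart at 41.1 and 23.7 (1.73, 1.32 to 2.26). *Cdkn1b* gave 1.85 there (1.16 to 2.90, 89 UMIs), *Rbl1* 1.41 (1.19 to 1.67), *Rb1* 0.999 (0.927 to 1.07, at 447 CPM unmarked), *Rbl2* 0.838 (0.577 to 1.19) and *Cdkn2a* 1.09 (0.745 to 1.56). Of the sparse genes, *Cdkn2b* had 37 UMIs unmarked and 2 marked there (0.178, 0.0208 to 0.689), and *Cdkn2d* had 19 and 0. *Cdkn1a* had 17 and 10 (1.94, 0.792 to 4.48), and *Cdkn2c* 3 and 1. *Rb1* was thus level in marked and unmarked germ nuclei without those over the threshold, and the ratio of *Rbl1* was larger. What part these differences in marker RNA had in the ratios of any population was not tested. In interstitial nuclei under the threshold *Cdkn2c* gave 18.8 (9.17 to 44.7) and *Rbl1* 2.26 (2.02 to 2.53).

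**Figure D3:**
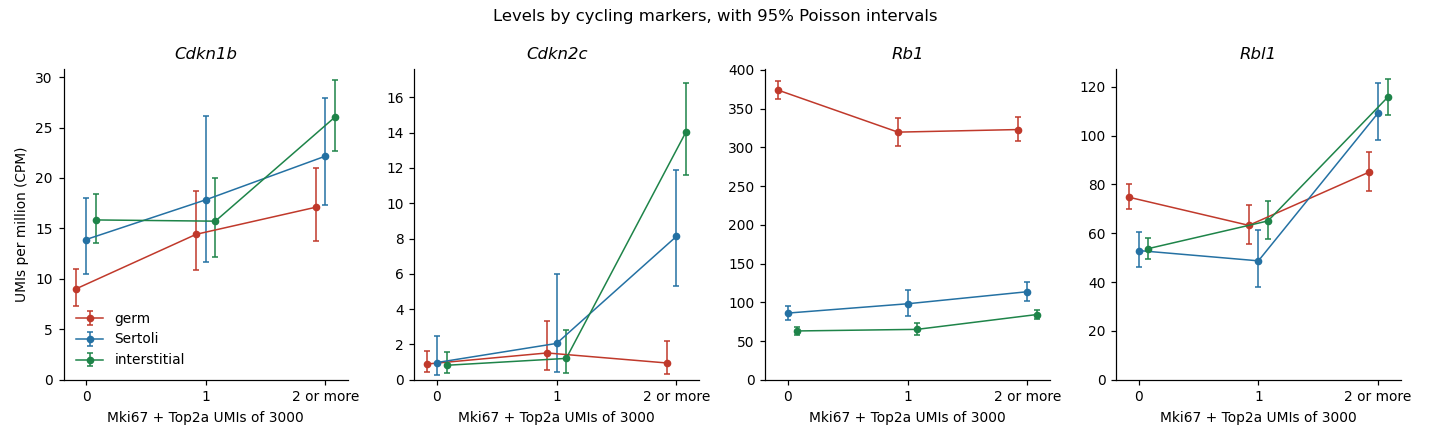
Levels of 4 genes in CPM are given for nuclei with 0, 1, and 2 or more UMIs of *Mki67* and *Top2a* among 3000, by population, with exact 95% Poisson intervals and lines that only join points of 1 population. *Cdkn2c* and *Rbl1* are highest in the last group of interstitial (14.0 and 116 CPM) and Sertoli nuclei, and *Rb1* lies above 300 CPM in germ nuclei throughout.

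**Figure D4:**
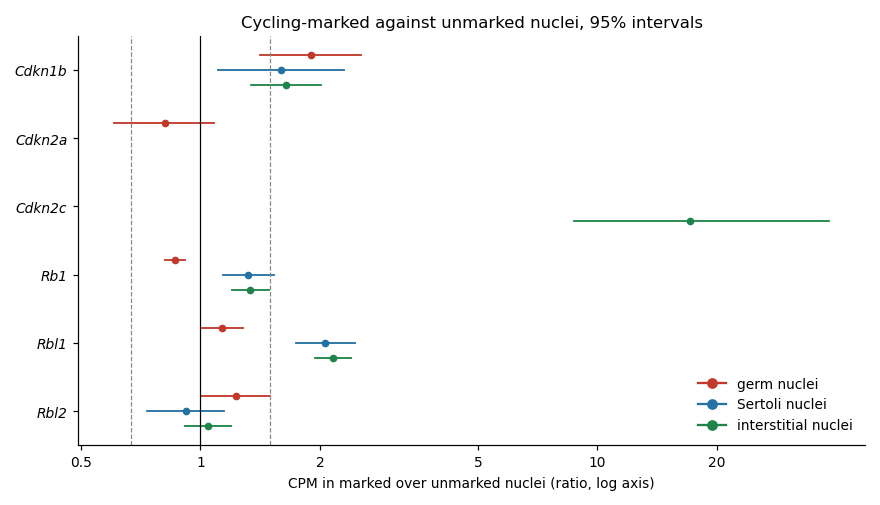
The ratio of CPM in marked over unmarked nuclei is given on a log axis with exact 95% intervals for genes with at least 100 UMIs over both groups, and dashed lines mark 1.5 times in each direction. *Cdkn2c* in interstitial nuclei lies apart at 17.1, and the germ ratio of *Rbl1* (1.14) lies left of the Sertoli and interstitial ratios (2.07 and 2.15).

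Phase scores from S and G2M gene lists placed these differences in the cycle. The G2M list held *Mki67* and *Top2a*, so the phases are no independent reading of the marks. In interstitial nuclei *Cdkn2c* had 0.197 CPM in G1 (2 UMIs), 4.06 in S (28 UMIs) and 15.7 in G2M (102 UMIs), whereas *Rbl1* was already high in S (35.7, 106 and 113 CPM). *Cdkn1b* was highest in G2M in interstitial nuclei (16.1, 13.3 and 31.3) and in Sertoli nuclei (15.5, 12.03 and 24.2). *Rb1* had its highest somatic level in S, 90.9 CPM in interstitial and 129 in Sertoli nuclei. In germ nuclei *Rbl1* stayed level, with 76.9, 76.1 and 73.8 CPM in G1, S and G2M, and so was *Rb1* with 357, 351 and 347. Of germ nuclei, 267 were scored S and 450 G2M, beside 183 marked and 175 with 1 marker UMI. In Sertoli nuclei 204 and 200 were so scored, beside 235 marked. In interstitial nuclei the numbers were 867 and 642, beside 891 marked. More nuclei were thus scored S or G2M than marked in each population. These calls alone do not show cycling, and the part of free RNA in them was not tested.

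At the *Cdkn2c* and *Rbl1* promoters, marked and unmarked interstitial nuclei were within 1.5 times. The *Cdkn2c* promoter had 27.2 FPM in marked and 23.1 in unmarked interstitial nuclei (1.18, 0.940 to 1.47), and *Rbl1* 21.8 and 19.4 (1.12, 0.875 to 1.44). The *Mki67* promoter gave 1.85 (1.47 to 2.33) and the *Top2a* promoter 1.42 (1.07 to 1.88) there. The nuclei were split by the RNA of these genes, so their promoters are no neutral measure. In germ nuclei they gave 1.22 (0.851 to 1.74) and 1.09 (0.661 to 1.76). In Sertoli nuclei they gave 1.33 (0.795 to 2.22) and 1.13 (0.596 to 2.12), and all these intervals outside interstitial nuclei hold 1. With at least 100 fragments over both groups, 1 of 9 genes was past 1.5 times upward in germ nuclei, 0 of 1 in Sertoli nuclei, and 1 of 8, downward, in interstitial nuclei. Over the promoters of all genes, 2.47% were higher and 2.03% lower in germ nuclei, 2.9% and 1.13% in Sertoli nuclei, and 0.953% and 1.17% in interstitial nuclei. The genes were *Cdkn1a* in germ nuclei (35.5 against 21.9, ratio 1.62, 1.17 to 2.24) and, downward, *Rbl2* in interstitial nuclei (12.2 against 19.96, ratio 0.609, 0.450 to 0.818), where *Rbl2* RNA gave 1.04. The *Cdkn1a* window covers its whole range of annotated starts, from 29090979 to 29097900. Within 1 kb of its start at 29093769, marked germ nuclei had 24 fragments and unmarked ones 29. At 29090979 they had 4 and 2. *Cdkn2b* in Sertoli nuclei had 10 fragments against 26 (0.544, 0.234 to 1.17).

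Other genes of the pathway, both targets of these brakes and regulators around them, were described from a list of 34: 11 cyclins and CDKs, 10 E2F and DP factors, 7 partners in the DREAM and MuvB complexes and 6 other regulators. Of those with enough UMIs, 16 of 32 were higher and 2 lower in marked interstitial nuclei, 10 of 25 and 1 in Sertoli nuclei, and 14 of 31 and 0 in germ nuclei, against the shares of all genes given above. The median log2 ratio of the list was 0.50 in interstitial, 0.40 in Sertoli and 0.52 in germ nuclei.

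*Foxm1*, a factor that drives G2M genes, went from 2.19 to 35.0 CPM in interstitial nuclei (16, 10.5 to 25.4), from 2.68 to 30.9 in Sertoli (11.5) and from 6.08 to 16.2 in germ nuclei (2.66, 1.91 to 3.71). *Ccnb1*, the mitotic cyclin, gave 13.7, 7.62 and 4.06 in the same order, and *Ccna2* 10.6, 10.4 and 2.36. *Cdk1* gave 7.55, 6.07 and 2.73. *Cdkn3*, a phosphatase that acts on CDKs and was no part of the 9, gave 14.98, 8.60 and 2.71. *Cdkn1c*, a further CIP/KIP inhibitor that was no part of the 9, gave 1.05 in interstitial and 1.34 in germ nuclei. By class it was highest in Leydig-like nuclei, with 64.0 CPM and 2.55 times the next class (1.95 to 3.40).

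Among the E2F factors the repressors *E2f7* and *E2f8* were higher, with ratios of 11.8 (9.56 to 14.8) and 12.4 (9.24 to 16.9) in interstitial nuclei and 2.52 and 6.30 in germ nuclei. *E2f2*, an activator, gave 8.86 in interstitial and 2.73 in germ nuclei. *E2f1* was past 1.5 times in germ nuclei (1.60, 1.24 to 2.07) and not in interstitial nuclei (1.05, 0.865 to 1.27). *E2f4*, which partners with p107 and p130, gave 1.08 in interstitial and 1.06 in germ nuclei.

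In the MuvB core that joins p107 or p130 to form DREAM, *Lin9* and *Lin54* were higher in marked interstitial (2.40 and 2.52) and Sertoli nuclei (1.97 and 2.33) and not in germ nuclei (0.969, 0.882 to 1.06, and 0.814, 0.732 to 0.905). *Lin52* and *Rbbp4* of the same core were within 1.5 times, with 1.27 and 1.23 in interstitial, 1.32 and 1.06 in Sertoli and 1.30 and 1.43 in germ nuclei, and *Lin37* had under 100 UMIs. The germ intervals of *Lin9* and *Lin54* lay below those in both somatic populations, as for *Rbl1*. *Mybl2*, which joins MuvB in cycling cells, was higher in all 3 (4.78, 2.56 and 1.77).

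Of the D-type cyclins, *Ccnd3* was lower in marked interstitial nuclei (0.662, 0.598 to 0.731) and gave 0.669 in Sertoli and 0.694 in germ nuclei, within 1.5 times. *Ccnd2* was lower in interstitial (0.601, 0.531 to 0.679), gave 0.693 in Sertoli (0.605 to 0.792) and was higher in germ nuclei (1.98, 1.67 to 2.35). *Cdk6* was lower in marked Sertoli nuclei (0.577, 0.497 to 0.667) and gave 0.999 in interstitial and 0.980 in germ nuclei. *Skp2*, the ubiquitin ligase subunit that directs p27 to degradation, was higher in interstitial (1.83) and germ nuclei (1.58) and gave 1.40 in Sertoli nuclei.

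**Figure D5:**
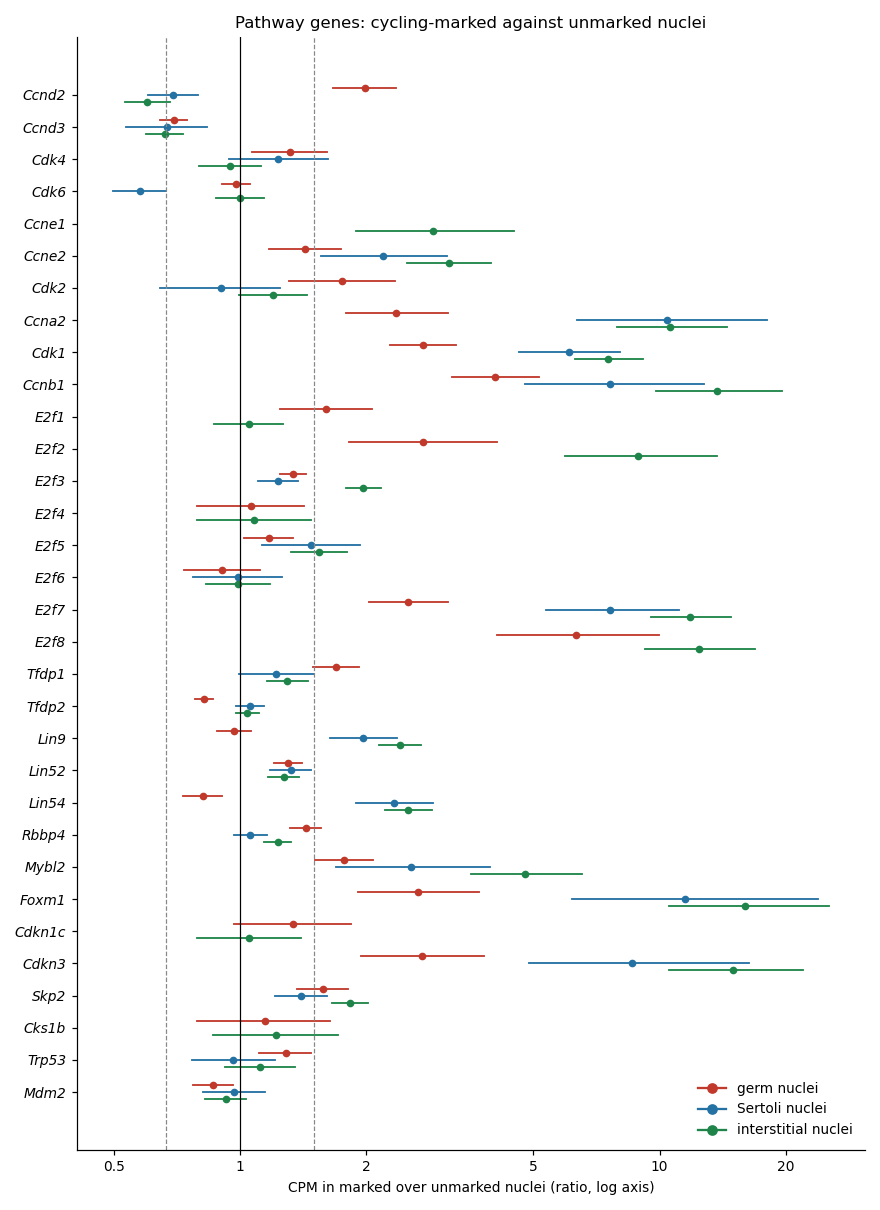
The ratio of CPM in marked over unmarked nuclei is given on a log axis with exact 95% intervals for genes of the pathway list with at least 100 UMIs over both groups, and dashed lines mark 1.5 times. *Foxm1* (16) and *Ccnb1* (13.7) lie far right in interstitial nuclei, *Ccnd3* lies left of 1 in all 3 populations, and *Lin9* and *Lin54* lie right of the 1.5 line in both somatic populations.

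Over the 11 classes, log2(CPM + 1) of the 9 genes correlated between -0.595 (*Cdkn2b* and *Rbl2*) and 0.904 (*Cdkn1b* and *Rbl2*), and *Cdkn2a* and *Cdkn2b* gave 0.662. The classes share 1 library and differ in depth, and small classes weigh as much as large ones, so these values only describe the profiles. Among 10830 genes with at least 500 UMIs, the profiles most like *Cdkn2a* were those of *Mettl4* (0.976), *Epp13* (0.965) and *Triml1* (0.965), and those most like *Cdkn2b* were *Arvcf* (0.940), *Gm40988* (0.934) and *Fam3b* (0.916). *Rb1* was followed most closely by *Plekhf2* (0.972), *Abcc4* (0.963) and *Setdb2* (0.961). For *Rbl1* they were *Sass6* (0.977), *Hdac1* (0.966) and *Cenpl* (0.965), for *Rbl2* *Cers2* (0.976), *Ndst2* (0.972) and *Tmem259* (0.969), and for *Cdkn1b* *Mpp1* (0.965), *Rnf168* (0.943) and *Srrt* (0.942). *Cdkn2c* had the weakest matches, *Ndufb8* (0.852), *Zw10* (0.850) and *Zfp110* (0.844). For *Cdkn1a* they were *Slc38a7* (0.963), *Abl1* (0.961) and *Rp2* (0.951), and for *Cdkn2d* *Metap2* (0.966) and *Snhg12* (0.965).

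The classes at the end of the order hold 44 erythroid-like and 65 immune-like nuclei. Nuclei with 0.5% or more haemoglobin UMIs had been removed, so the erythroid-like nuclei are those that passed this filter. Among the 7 classes of at least 300 nuclei only, a comparison added after the data were seen, 5 of the 9 genes had a class at least 1.5 times the next, against 33.1% of 14873 genes. They were *Cdkn1a* (1.81, 0.996 to 3.51, an interval that holds 1), *Cdkn2a* (16.7), *Cdkn2b* (8.08) and *Rb1* (3.57) in germ-like and *Cdkn2c* (2.03) in progenitor-like nuclei. For *Cdkn2c* the progenitor-like UMIs lay mostly in marked nuclei (111, against 6 in unmarked ones). Unmarked progenitor-like nuclei had 0.886 CPM of it and unmarked Sertoli nuclei 0.975.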

How the data were processed

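The deposited matrix holds raw counts, per the file headers and the study's methods: RNA molecules (UMIs) by gene and cut sites by peak for 9833 barcodes, made by the authors with Cell Ranger ARC 2.0.1 on mm10 from 1 RNA and 1 ATAC library, beside a list of fragments that was also counted here. Values of both libraries therefore come from the same nuclei. Nuclei were kept at the study's thresholds (over 500 genes, under 10% mitochondrial, 10% ribosomal and 0.5% haemoglobin UMIs, over 20% of fragments at peaks, 250 to 25000 fragments), which left 7668, and the 6.13% highest Scrublet scores (scanpy 1.11.5) were taken out, in place of the caller named in the methods, while an automatic threshold would mark 18.2%. Free RNA was not removed. No blacklist filter was applied.

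Nuclei were clustered with Seurat 5.3.0 in R 4.3.3 on both assays (2000 variable genes, 30 components, resolution 0.3). The 9 genes, *Mki67* and *Top2a* took no part in the clustering, and clusters were named from fixed markers. UMIs were summed per class as CPM. With 1 library no test was made, and a gene was counted as higher or lower at a ratio of 1.5 with at least 100 UMIs. The ratios and intervals were run on simulated sums with counting error alone. That run could not cover spread between nuclei, doublets or free RNA. Named were the 9 genes, the pathway list and the 3 genes most correlated with each over classes, of which 1 is not reported here. The genes and lists were chosen with earlier results of these data known.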

Additional observations from a re-analysis of the deposited data

How the results depend on the processing

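No paired analysis was possible because each assay has 1 library. For the 9 genes, the split into marked and unmarked nuclei was repeated under 15 alternatives, and in interstitial nuclei under a further 1 with Leydig-like nuclei added. The pathway list was not repeated. The count of higher genes in germ nuclei (1, *Cdkn1b*) was 0 with Scrublet at its automatic threshold, without nuclei of over 20000 UMIs, with thinning to 2000 or 5000 UMIs and with phases in place of markers, and thinning to 2000 UMIs gave 1 lower gene, *Cdkn2a* (0.599). The first of these left *Cdkn1b* at 1.85 with under 100 UMIs. In Sertoli nuclei the count of 2 was 1 without doublet removal, on classes from RNA alone, at resolution 0.6, with the 9 genes allowed among the variable genes, with nuclei marked at 1 UMI, with *Mki67* or *Top2a* alone, and with thinning to 2000 or 5000 UMIs, and *Cdkn1b* ranged from 1.22 to 1.92. The interstitial counts were 2 or 3, though with phases *Rb1* (1.503) took the place of *Cdkn1b* (1.37), as it did in Sertoli nuclei (1.53 and 1.22). In interstitial nuclei *Cdkn2c* ranged from 5.78 (*Mki67* alone) to 49.2 (phases), *Rbl1* from 1.61 to 3.07 and *Cdkn1b* from 1.37 to 1.69. In germ nuclei *Rbl1* ranged from 0.970 to 1.41, *Rbl2* from 0.734 to 1.35 and *Cdkn2a* from 0.599 to 1.25. No gene counted as higher in the main split changed direction in these alternatives. The count of genes with a leading class was 3 to 5, and the count at promoters was 4 in place of 1 with cuts in deposited peaks, by which 12.3% of all genes had one. The cause was not tested. With cuts, the calls of *Cdkn1a* and *Cdkn1b* rested on 22 cuts each. *Cdkn1a*, *Cdkn2b* and *Cdkn2d* had under 100 UMIs in the split and were not counted.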
